A study of Mus musculus with 8 samples.

Results

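Peaks of the histone mark H3R17me2a that lie in the olfactory and vomeronasal receptor clusters of the mouse genome were examined in heart muscle cells. A peak belonged to the set when its summit lay within 20 kb of a gene whose symbol begins with Olfr, Vmn1r or Vmn2r, on chromosomes 1 to 19. In all, 787 of 33112 peaks met this rule, 289 of 11862 from control 1, 196 of 8002 from control 2, 97 of 4563 from knockout 1 and 205 of 8685 from knockout 2. Where they overlapped by at least 1 bp, peaks were merged across libraries, which gave 623 receptor regions among 26481 regions. The rule used positions alone and no measured value. On the scale of the distance rule, 12 members had summits 19 to 20 kb from a receptor gene, and 20 further peaks lay 20 to 21 kb away and were left out.

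All mice were Carm1fl/fl, that is, both alleles of the arginine methyltransferase gene Carm1 can be cut by Cre recombinase. Mice of the knockout group received AAV9-Cre on postnatal day 1, and control mice, called WT in the labels, received AAV9-GFP, which carries a fluorescent protein in place of Cre. The hearts were mosaic, with infected and uninfected cardiomyocytes side by side, so knockout libraries hold chromatin of cells that still have Carm1. Each group had 2 ChIP libraries, made from sorted nuclei that carry the cardiomyocyte protein PCM1, with micrococcal nuclease used to fragment the chromatin. Age at harvest, the promoter driving Cre and the hearts per library are not given in the labels used here. Nor is it stated that the 2 libraries of a group are separate animals: p-values reflect the spread between libraries, which may be technical.

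Odorant receptors (Olfr) are the G protein-coupled receptors of the main olfactory epithelium, and each mature sensory neuron there expresses 1 allele of 1 receptor gene. The vomeronasal receptors of the Vmn1r and Vmn2r families detect pheromones and related cues in the vomeronasal organ. The Vmn2r receptors have a long extracellular domain at their amino end, and the Olfr and Vmn1r receptors do not. The genes of all 3 families lie in tandem arrays that are packed into compact, inactive chromatin in other tissues, and they are generally silent in the heart. H3R17me2a, the mark that Carm1 deposits on histone H3, is known mainly from active promoters and enhancers. The annotation held 2043 such genes on these chromosomes, of which 1458 code for protein and 585 are pseudogenes or of another type. There were 1420 Olfr genes with a median length of 945 bp, 372 Vmn1r genes with a median of 921 bp and 251 Vmn2r genes with a median of 16059 bp. With 20 kb on either side, their windows covered 51.2 Mb, 2.08% of the autosomes.

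Promoters of the receptors were nearly free of peaks. Of 1265 receptor promoters of 300 bases (250 before to 50 after the start, RefSeq, GRCm38.p6), none lay under a peak in control 1 or in control 2, 1 did in knockout 1 and 1 in knockout 2. Promoters at large were nearly free of them too: the 2 receptor promoters were 0.158% of their set, where 80 of 31396 promoters of all genes, 0.255%, lay under a peak in any library. A count of 0 of 1265 allows a share of up to 0.237% in a library, above the 0.108% (control 1) and 0.0987% (control 2) of all promoters, so a lower share at receptors was not detectable. Both promoters are printed here 5′ to 3′ on the minus strand, with the bases under the peak in capitals, because no other receptor promoter in the table lay under a call.
Olfr749, chr14:50744275-50744574: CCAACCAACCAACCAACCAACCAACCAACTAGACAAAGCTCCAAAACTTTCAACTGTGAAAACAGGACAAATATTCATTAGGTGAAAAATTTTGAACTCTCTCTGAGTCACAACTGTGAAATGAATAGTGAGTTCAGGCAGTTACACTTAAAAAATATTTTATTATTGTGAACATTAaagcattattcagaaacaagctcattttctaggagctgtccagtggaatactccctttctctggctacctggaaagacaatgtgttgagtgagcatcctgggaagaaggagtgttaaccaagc
Olfr816, chr10:129912227-129912526: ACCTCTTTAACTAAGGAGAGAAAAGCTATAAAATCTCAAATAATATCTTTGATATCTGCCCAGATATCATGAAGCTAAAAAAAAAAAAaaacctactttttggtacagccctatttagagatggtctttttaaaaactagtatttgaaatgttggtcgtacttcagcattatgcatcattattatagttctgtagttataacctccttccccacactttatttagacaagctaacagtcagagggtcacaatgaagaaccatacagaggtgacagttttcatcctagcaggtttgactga
The Olfr749 peak was called in knockout 1 with 8 fragments at its summit and a deposited fold of 5.60, and covered 177 bases of the promoter. The Olfr816 peak was called in knockout 2 with 6 fragments and a fold of 5.12, and covered 88 bases, which are rich in A in the last stretch shown in capitals and hold the letters TATAAA. Neither returned in a second library.

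Receptor promoters differed in base composition from promoters at large. Their mean GC content was 36.2%, against 54.0% over all promoters, and the 2 promoters shown had 38.3% (Olfr749) and 34.0% (Olfr816). TAATTA, the core letters of LIM-homeodomain factors such as Lhx2, stood on either strand in 16.7% of receptor promoters and in 5.27% of all promoters. CCCNNGGG, the core letters of early B cell factors such as Ebf1, stood in 4.19% and 13.9%. TATAAA stood in 39.6% and 13.6%. The 2 printed promoters hold neither TAATTA nor CCCNNGGG. TAATTA and TATAAA hold only A and T, and the fixed letters of CCCNNGGG are only C and G. The shares were not adjusted for GC content, so they do not show more or fewer sites of any factor than base composition gives. These matches describe letters in a window only, and with 2 promoters under a peak nothing was compared between promoters with and without one.

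Over the whole windows, peaks were somewhat denser than if each summit had been placed anywhere on its own chromosome. Receptor windows held 5.64 peaks per Mb (control 1), 3.83 (control 2), 1.89 (knockout 1) and 4.00 (knockout 2). The relocated expectation was 4.79, 3.22, 1.82 and 3.55 peaks per Mb in the same order. Every library was therefore above its expectation, control 2 by the most and knockout 1 by the least, with ratios of 1.18, 1.19, 1.04 and 1.13. The mean log2 ratio was 0.18 ± 0.09 (SD, n = 4 libraries; exact two-sided sign-flip permutation test, p = 0.125, the smallest that 4 libraries allow). With summits placed only between the first and last summit of each chromosome, the mean log2 ratio was 0.16. With windows of 5 kb in place of 20 kb the mean log2 ratio was −0.42. When summits were moved only within 50 kb of their position it turned to −0.055, but such a move leaves 85.2% to 87.8% of members inside the windows, so it can show little of an excess over whole clusters.

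Windows with the same 20 kb on either side of other protein-coding genes held fewer peaks than relocation gave, with ratios of 0.838 to 0.885 over the 4 libraries. Receptor windows were above these windows in all 4 libraries, by 0.40 ± 0.12 on the log2 scale (SD, n = 4; exact sign-flip permutation p = 0.125). The 2 kinds of window differ in make-up. Other protein-coding genes themselves spanned 978 Mb, where their windows covered 1309 Mb, and receptor genes spanned 8.08 of 51.2 Mb. Inside genes the ratios over the summed lists were 0.771 for other protein-coding genes and 0.706 for receptor genes. How far gene span accounts for the difference was not tested. Gene deserts, sequence more than 100 kb from any protein-coding gene, had ratios of 1.07 to 1.13. Receptor windows exceeded them by 0.05 ± 0.07 on the log2 scale (3 of 4 libraries; exact sign-flip permutation p = 0.25), a difference smaller than the spread between libraries, and 0.02 without control 2 or 0.08 without knockout 1. Assembly gaps were kept as sequence in these expectations, and how much of the deserts and of the receptor windows they fill was not checked. The direction of so small a difference is therefore not settled. A set of 376 genes of other tandem families, among them keratin-associated proteins, defensins, taste receptors and major urinary proteins, held 195 peaks with ratios of 0.726 to 1.21. The receptor windows differed from these by 0.15 ± 0.27 (3 of 4 libraries; exact sign-flip permutation p = 0.375), and by 0.03 without knockout 1 or 0.24 without knockout 2. Most receptor windows lie apart from other genes: over 20 kb from any other protein-coding gene the ratios were 1.10 to 1.22, and in the rest of the windows they were 0.666 to 1.00. That difference was 0.40 ± 0.22 on the log2 scale, in the same direction in 4 of 4 libraries (exact sign-flip permutation p = 0.125). Adjustment covered the 9 density comparisons made this way, including those below between families and between sequence inside and next to receptor genes. Benjamini-Hochberg adjusted exact sign-flip permutation p-values ran from 0.281 to 0.625.

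**Figure D1:**
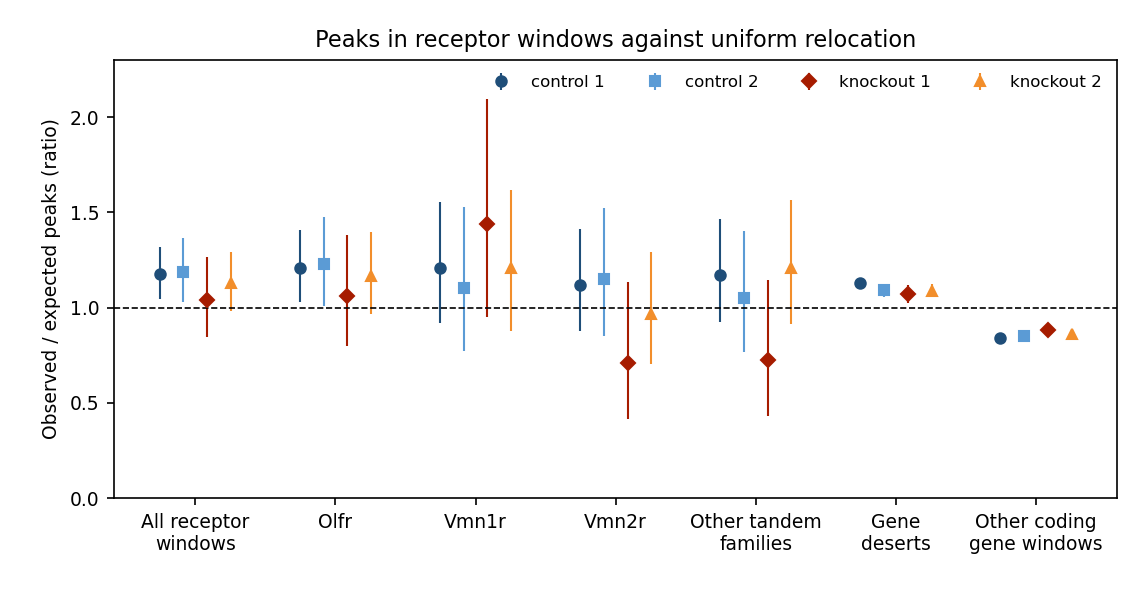
Ratio of observed to expected peaks (linear axis) per library for receptor windows, each receptor family, other tandem families, gene deserts and windows of other protein-coding genes; each point is 1 library and bars are 95% Clopper-Pearson intervals of the share of peaks divided by the expected share, which cover counting error only. Receptor windows lie at 1.04 to 1.19, near gene deserts at 1.07 to 1.13, and all 4 libraries lie above their own value for other coding genes.

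The 3 families did not behave alike in each library. Olfr windows had ratios of 1.21, 1.23, 1.06 and 1.17 in control 1, control 2, knockout 1 and knockout 2, above 1 in all 4. For the pheromone receptors of the Vmn1r family the ratios were 1.21, 1.10, 1.44 and 1.21, also all above 1, with the highest in knockout 1. Vmn2r windows had 1.12, 1.15, 0.710 and 0.967, above 1 in both controls and below 1 in both knockouts. Olfr windows exceeded Vmn2r windows by 0.26 ± 0.23 on the log2 scale in 4 of 4 libraries (exact sign-flip permutation p = 0.125). Olfr and Vmn1r windows differed by −0.09 ± 0.25 (1 of 4 above 0, exact sign-flip permutation p = 0.625), and Vmn1r exceeded Vmn2r by 0.35 ± 0.48 (3 of 4, exact p = 0.25). These 3 differences lean on knockout 1: without it they were 0.16, 0.03 and 0.12 in the order given. The Olfr and Vmn1r difference was −0.16 without control 2. Counted by the nearest gene, 442 members belonged to Olfr, 166 to Vmn1r and 179 to Vmn2r genes.

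Between the groups, receptor windows held 4.74 ± 1.28 peaks per Mb in control and 2.95 ± 1.49 in knockout libraries (mean ± SD, n = 2 each; log2 ratio −0.68, exact two-sided permutation p = 0.667). The groups overlapped, since knockout 2 lay between the controls. The lists themselves differ in length, and the share of each library's peaks that were members allows for it: 2.44% for control 1 (95% Clopper-Pearson interval 2.17 to 2.73%), 2.45% for control 2 (2.12 to 2.81%), 2.13% for knockout 1 (1.73 to 2.59%) and 2.36% for knockout 2 (2.05 to 2.70%). Both knockout shares lay below both control shares. The means differed by −0.20 percentage points, and the exact permutation p was 0.333, the smallest that 2 libraries against 2 allow. With lists of equal length the difference was −0.12 points (exact permutation p = 0.667), and at a −log10 q of at least 5 it was −0.11. In both of these settings the shares of the groups overlapped. The exact permutation p stayed 0.333 with windows of 5 and 50 kb and with protein-coding receptors only. Without knockout 1, the shortest list, the difference was −0.082 points, and without knockout 2 it was −0.32. The log2 ratio of peaks per Mb was −0.24 without knockout 1, −0.38 without control 1 and −1.32 without knockout 2. Each knockout interval contains both control shares, and whether counting error alone gives the difference was not tested. Intervals here and below cover counting error only.

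By family, Vmn2r and Vmn1r windows differed between the groups in opposite directions, and no test could pass a threshold with 2 libraries a group. Vmn2r members were 0.599% and 0.612% of the control lists and 0.373% and 0.518% of the knockout lists, with observed-to-expected ratios averaging 1.14 ± 0.02 in control and 0.838 ± 0.18 in knockout libraries (SD, n = 2 each; exact permutation p = 0.333). For Vmn1r the order was the other way, 0.497% and 0.450% in control against 0.592% and 0.507% in knockout lists (exact permutation p = 0.333). The log2 ratio of Vmn1r over Vmn2r averaged 0.02 in control and 0.67 in knockout libraries (n = 2 each, exact permutation p = 0.333). In knockout 1 these values rest on 27 Vmn1r and 17 Vmn2r peaks.

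Peaks were denser away from the receptor genes than inside or next to them. Of the 787 members, 77 (9.78%) had a summit inside a receptor gene, 511 (64.9%) lay more than 5 kb from one, and the median distance was 7.25 kb. Inside receptor genes the ratio to relocation was 0.706 over the summed lists, and 0.473 to 0.875 over the libraries. The families differed: it was 0.410 inside Olfr genes (13 peaks) and 0.142 inside Vmn1r genes (1 peak). Inside Vmn2r genes, which held 63 of the 77 peaks, it was 0.897, with 0.523 to 1.06 over the libraries. Whether reads can be placed in receptor genes as well as elsewhere was not checked. From the edge of a receptor gene to 5 kb the ratio was 0.806 (0.626 to 0.908), again below 1 in 4 of 4 libraries. Sequence inside genes minus this sequence was −0.21 ± 0.22 on the log2 scale (SD, n = 4, 1 of 4 above 0, exact sign-flip permutation p = 0.25). At 5 to 10 kb the ratio rose to 1.50 (1.33 to 1.74) and at 10 to 20 kb to 1.60 (1.33 to 1.71). Beyond the windows it came down to 1.28 at 20 to 50 kb (1.06 to 1.36) and 1.09 at 50 to 100 kb (0.943 to 1.22).

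The step between near and far sequence was measured as the density at 5 to 20 kb over that inside genes and up to 5 kb, a contrast chosen after the distance values were seen. It was 1.05 ± 0.27 on the log2 scale (SD, n = 4), 2.07-fold, and above 0 in 4 of 4 libraries (exact sign-flip permutation p = 0.125). Olfr genes gave 1.27 ± 0.58, Vmn1r genes 1.25 ± 0.38 and Vmn2r genes 0.45 ± 0.15, each above 0 in 4 of 4 libraries. Other protein-coding genes had a step of their own, 0.70 ± 0.06. The receptor step was larger by 0.35 ± 0.26 in 4 of 4 libraries (exact sign-flip permutation p = 0.125), and by 0.23 without knockout 1. For the other tandem families the step was 1.79 ± 1.73, and the receptors' minus theirs was −0.74 ± 1.49 (exact sign-flip permutation p = 0.5). Both values rest on knockout 1, which had 1 peak inside or within 5 kb of those genes: without it the step was 0.96 and the difference −0.03. Without control 1 that difference was −1.14.

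**Figure D2:**
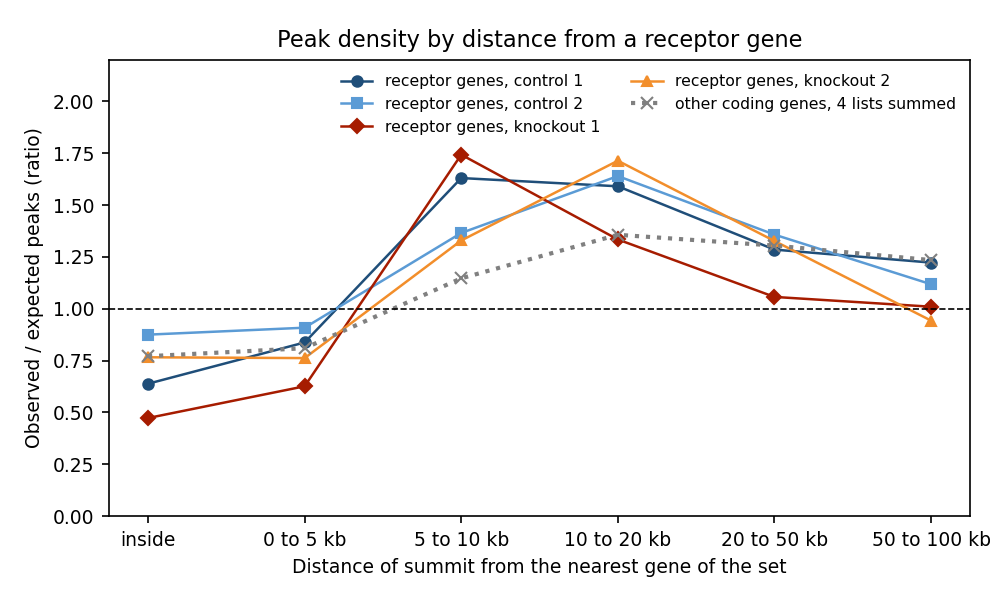
Ratio of observed to expected peaks (linear axis) by distance of the summit from the nearest receptor gene, 1 line per library, with other protein-coding genes summed over the 4 lists as the grey dotted line. All 4 libraries lie below 1 inside receptor genes and up to 5 kb, and between 1.33 and 1.74 at 5 to 20 kb.

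Receptor peaks were weak, as most peaks of each list were. Median fragment numbers at the summit, recovered from each peak's deposited fold and significance, came to 7 for each library except knockout 1 (8), the same as for all other peaks. Summits of 10 fragments or fewer made up 90.3%, 91.8%, 82.5% and 90.2% of members and 87.6%, 87.0%, 76.9% and 88.2% of other peaks, a higher share of members in 4 of 4 libraries that was not tested. The median deposited fold of members was 5.63, 5.44, 5.40 and 5.73, and that of other peaks 5.69, 5.44, 5.54 and 5.69. The members' median minus the others' averaged −0.04 ± 0.08 (SD, n = 4; exact sign-flip permutation p = 0.5). It was −0.24 (exact sign-flip permutation p = 0.125) among peaks with a −log10 q of at least 5, −0.12 with 5 kb windows, −0.07 without knockout 2 and −0.0056 without knockout 1. A fold of 10 was reached by 15 of the 787 members. Their shares were 2.77%, 1.02%, 2.06% and 1.46% over the 4 libraries, against 3.89%, 2.88%, 1.86% and 3.81% of other peaks, lower by 1.28 ± 1.11 percentage points (3 of 4 libraries; exact sign-flip permutation p = 0.25). No member lay in a region of 100-fold or more, of which the lists hold 14 to 16 peaks each. Median peak width was 299, 304, 293 and 294 bp for members and 297, 292, 301 and 301 bp for other peaks. With 5 kb windows the width difference averaged −19.4 bp (exact sign-flip permutation p = 0.125), against −0.25 bp here.

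Receptor peaks returned between libraries about as often as other peaks. A peak of another library overlapped 30.1% of the members of control 1, 36.2% of those of control 2, 42.3% of those of knockout 1 and 35.6% of those of knockout 2. For other peaks the shares were 28.4%, 31.5%, 46.2% and 33.7%. The difference averaged 1.13 ± 3.63 percentage points (SD, n = 4; 3 of 4 above 0, exact sign-flip permutation p = 0.625), and was −1.04 without control 2, 0.34 without control 1 and 3.57 without knockout 1. Stronger peaks returned more often among members and other peaks alike. In knockout 2, for example, 15.3% of members with 6 fragments or fewer returned, 41.6% of those with 7 to 9 and 74.2% of those with 10 or more, against 16.6%, 38.0% and 61.7% of other peaks. At 10 fragments or more, members minus other peaks averaged 5.67 ± 8.15 percentage points (SD, n = 4, 2 of 4 above 0, exact sign-flip permutation p = 0.5). Members were below other peaks there in control 2 (59.4% against 59.7%) and knockout 1 (62.5% against 64.8%).

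Of the 623 receptor regions, 515 (82.7%) were called in 1 library alone, beside 83.8% of all regions. All 4 libraries called 10 (1.61%), where the background over all regions was 1.96%. Both controls and neither knockout called 21 (3.37%; background 2.45%), and both knockouts and neither control called 6 (0.963%; background 1.11%). The 4 mixed pairs, 1 control with 1 knockout, were read in the same way. Control 1 with knockout 1 had 5 (0.803%; background 1.54%), control 1 with knockout 2 had 21 (3.37%; background 3.24%), control 2 with knockout 1 had 5 (0.803%; background 0.767%) and control 2 with knockout 2 had 9 (1.44%; background 1.57%). The pair of control 1 and knockout 2 thus called as many regions exclusively as the 2 controls did. The 31 regions of 3 libraries were 4.98%, beside 3.61% of all regions. No test was made of the classes. The class counts moved with the setting: with a −log10 q of at least 5, 3 regions were left in both controls and neither knockout and 2 in both knockouts and neither control.

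**Figure D3:**
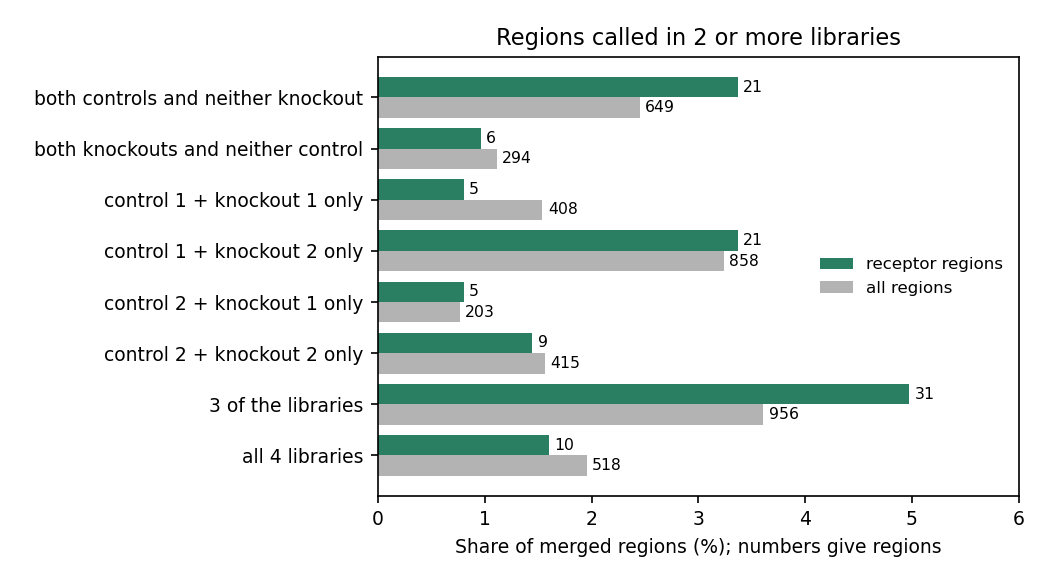
Share of merged regions (%, linear axis from 0) called in each combination of 2 or more libraries, for receptor regions in green and all regions in grey, with the number of regions at the end of each bar. There were 21 receptor regions called in both controls only and 21 in control 1 and knockout 2 only, and the green bar is well short of the grey one for control 1 with knockout 1.

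Among the 10 receptor regions called in all 4 libraries, 1 stood apart. It lay 14.5 kb from Olfr49, an odorant receptor gene of chromosome 14, at chr14:54297163-54297504 (mm10), and overlapped the long noncoding RNA gene Gm43305. Its summit held 44 fragments (control 1), 43 (control 2), 26 (knockout 1) and 18 (knockout 2), with deposited folds of 32.3, 29.9, 16.8 and 13.9. Neither fragments nor folds are scaled for library depth, so the lower values in the knockout lists were not compared with those of the controls. The 4 calls ended at the same base, and their starts differed by 111 bp. Over the 41 receptor regions called in 3 or 4 libraries the median range of the ends was 275 bp and that of the starts 285 bp. Another narrow region with one nearly fixed edge, 5.49 kb from the pseudogene Olfr1171-ps1 at chr2:88247255-88247559, was called in both controls and knockout 1 with 37 to 39 fragments, and its ends differed by 1 bp. A region inside Vmn2r91 (15 to 23 fragments) had starts within 6 bp and ends within 35 bp. Near Vmn2r13 (9 to 10 fragments) the ends lay within 6 bp. Both were called in both controls and knockout 2. The regions of Olfr1171-ps1, Vmn2r91 and Vmn2r13 were chosen after their values were seen.

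The other 9 regions of all 4 libraries were weaker, with 6 to 14 fragments. The region 7.94 kb from the pseudogene Olfr408-ps1 (chr11:74306599-74307579) held 9, 10, 11 and 11 fragments in control 1, control 2, knockout 1 and knockout 2. Near Vmn1r-ps54 (chr7:11796298-11797382) there were 12, 8, 12 and 11, and near the pheromone receptor gene Vmn1r34 (chr6:66654390-66655927) 10, 13, 14 and 9. The remaining 6 were nearest Olfr296-ps1, Olfr1350, Olfr363-ps, Vmn2r-ps28, Olfr196 and Vmn1r-ps138, with 6 to 13 fragments in every library. The deposited folds of these 9 regions ranged from 4.28 to 9.53. All 10 lay outside receptor genes, and 6 of the 10 nearest genes are pseudogenes. Among all 2043 receptor genes, 585 are pseudogenes or of another type, and the share among the nearest genes of all receptor regions was not counted. The strongest summit of the Olfr1350 region lies 20.1 kb from the gene, and the region belongs to the set through a summit of another library.

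**Figure D4:**
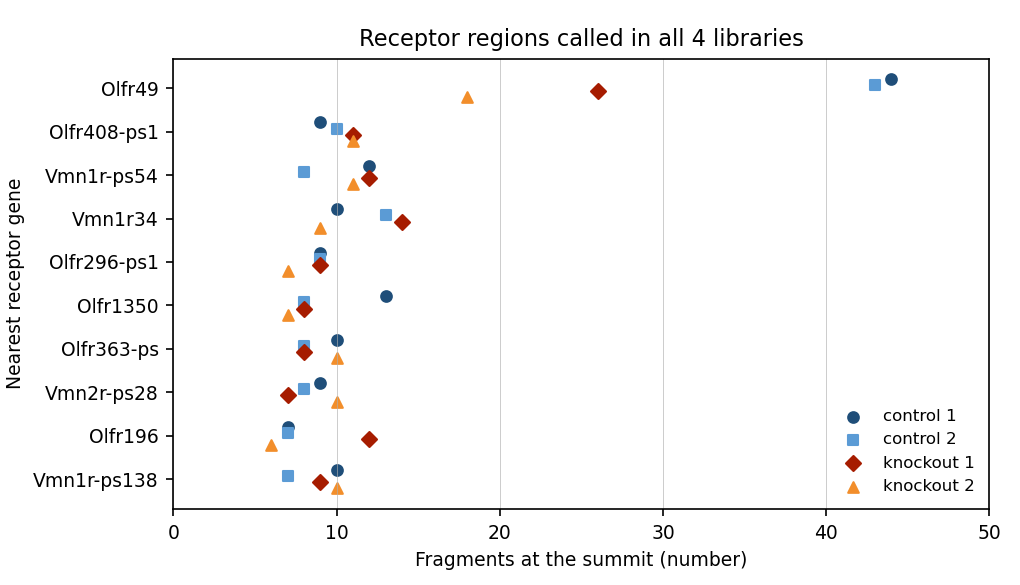
Fragments at the strongest summit (number, linear axis) in each library for the 10 receptor regions called in all 4 libraries, named by the nearest receptor gene and ordered by their lowest within-list percentile of −log10 q. The Olfr49 region has 18 to 44 fragments, and the other 9 have 6 to 14.

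The 21 regions of both controls and neither knockout had 5 to 12 fragments per summit and folds of 4.08 to 8.84. The strongest lay 17.4 kb from Olfr1490 on chromosome 19 (chr19:13672616-13673164), with 9 fragments in control 1 and 12 in control 2. After it came regions near Olfr634-ps1 with 12 and 8 fragments, a second region near Olfr408-ps1 with 8 and 8, and Vmn1r40 with 8 and 8. Regions near Olfr1340, Olfr126, Vmn2r-ps64, Olfr38, Olfr1458 and Vmn2r-ps25 completed the first 10, and the Vmn2r-ps25 region was the one among them inside a receptor gene. Nearest genes were Olfr in 13 of the 21, Vmn1r in 3 and Vmn2r in 5. The 6 regions of both knockouts and neither control had 6 to 11 fragments. The strongest lay 18.6 kb from Vmn2r22 (chr6:123590801-123591396) with 11 fragments in both knockouts, followed by Olfr532 with 8 and 10 fragments, and then Olfr404-ps1, Olfr152, Olfr294 and Vmn1r137.

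Receptor windows joined where they lay within 500 kb formed 105 clusters, of which 64 held a peak and 41 held none; 39 of the 105 consist of a single gene. Those without a peak include Vmn2r122 (chr4:1-31935), Vmn1r-ps88 to Vmn1r-ps91 (chr7:1-192761) and Olfr100 (chr17:60755-101681), at the starts of their chromosomes. Whether their coordinates are right and reads can be placed there was not checked. A cluster without a peak is therefore not always one where a peak could have been called. The accounts of clusters that follow are limited to those with at least 0.5 Mb of window. Smaller ones reached higher densities: Vmn2r-ps25 to Vmn2r-ps28 on chromosome 5, chosen after its values were seen, held 16 peaks where 3.13 were expected. Both counts are summed over the 4 lists, a ratio of 5.10 and 71.1 summed peaks per Mb, above expectation in 4 of 4 libraries. In the 33 clusters of at least 0.5 Mb the observed-to-expected ratio over the summed lists ran from 0.139 to 2.56, with a median of 1.19. Of these 33, 6 were above expectation in all 4 libraries and 5 below in all 4. The cluster with the most genes, Olfr987 to Olfr1274 on chromosome 2 with 293, held 63 peaks where 60.7 were expected (28, 15, 6 and 14 in control 1, control 2, knockout 1 and knockout 2). Clusters of 158 genes (Olfr543 to Olfr692, chromosome 7), 127 genes (Olfr160 to Olfr986, chromosome 9) and 99 genes (Vmn1r91 to Vmn1r183, chromosome 7) held 30, 34 and 47 peaks where 33.8, 30.5 and 39.5 were expected. The 4 clusters with the most genes thus had ratios of 0.887 to 1.19.

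Other clusters departed further in both directions. Among those of at least 0.5 Mb, the densest was Olfr172 to Olfr209 on chromosome 16, with 20 peaks where 9.41 were expected. That is 31.3 peaks per Mb over the 4 lists summed, spread unevenly as 10, 1, 3 and 6 peaks over control 1, control 2, knockout 1 and knockout 2. The cluster of Olfr20 to Olfr412 on chromosome 11 had 29 peaks where 11.3 were expected (13, 5, 3 and 8), and Vmn1r55 to Olfr1350 on chromosome 7 had 25 where 12.2 were expected (10, 5, 5 and 5). Both were above expectation in 4 of 4 libraries, as was the 92-gene cluster of Olfr1417 to Vmn2r-ps135 on chromosome 19 with 31 peaks where 17.5 were expected. Vmn2r90 to Vmn1r-ps150 on chromosome 17 was below expectation in 4 of 4 libraries, with 17 peaks where 33.9 were expected in 2.71 Mb of window. The sparsest of at least 0.5 Mb were Olfr693 to Olfr716 on chromosome 7 with 1 peak of 7.20 expected, Olfr722 to Vmn2r89 on chromosome 14 with 3 of 14.8, and Olfr522 to Olfr542-ps1 on chromosome 7 with 2 of 7.27. Of the other clusters named for their gene number, Olfr1370 to Vmn1r-ps135 on chromosome 13 held 30 where 21.6 were expected, and Olfr9 to Vmn2r87 on chromosome 10 held 23 where 18.3 were expected. The number of genes per Mb did not track the ratio across the 33 clusters (Spearman's rho 0.06 and Pearson's r 0.06, a description over clusters that share the 4 libraries). The densest and the sparsest were ranked on these counts, so their distance from the expectation is a description.

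**Figure D5:**
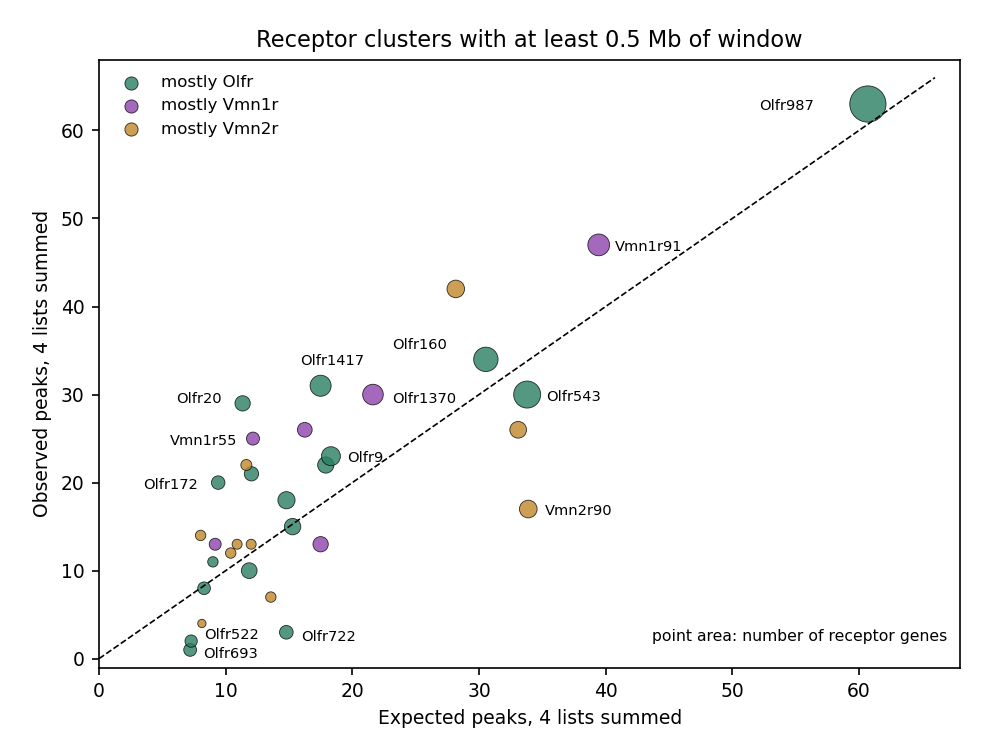
Observed against expected peaks (number, 4 lists summed, linear axes) for the 33 receptor clusters with at least 0.5 Mb of window, coloured by the family with the most genes, point area by number of receptor genes, dashed line at equality; named clusters carry their first gene. The cluster with the most genes, Olfr987 with 63 peaks, lies close to the line, and Olfr172, Olfr20 and Vmn1r55 lie above it.

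By gene, control 1 had a summit within 20 kb of 364 of the 2043 receptor genes (17.8%), control 2 of 268 (13.1%), knockout 1 of 147 (7.20%) and knockout 2 of 263 (12.9%). The background among 20665 protein-coding genes, which have a median length of 17.5 kb, was 21.1%, 17.1%, 10.5% and 17.5%. Receptor genes lay below it in 4 of 4 libraries, and 1419 of them (69.5%) had no summit within 20 kb in any library, beside 61.4% of protein-coding genes. A summit in all 4 libraries was found for 23 (1.13%; background 3.17%), 13 of them Olfr, 5 Vmn1r and 5 Vmn2r. One peak can count for several neighbouring genes, so these genes are not independent of each other. The sets are also unlike: the background includes the 1458 protein-coding receptors, and the receptor genes include 585 pseudogenes or genes of another type. Receptor genes have a median length of 945 bp, so the 20 kb rule covers less sequence per gene for them than for the background. These shares were not adjusted for gene length.

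Other genes of odorant and pheromone signalling and of receptor choice were taken from a list of 24, all matched. Control 1 had a summit within 20 kb of 9 (37.5%), control 2 of 3 (12.5%), knockout 1 of 2 (8.33%) and knockout 2 of 5 (20.8%), beside the same backgrounds of 21.1%, 17.1%, 10.5% and 17.5%; in control 1 and knockout 2 the share was above the background and in the others below it. The listed genes have a median length of 28.8 kb, against 17.5 kb for all protein-coding genes. Adcy3, the adenylyl cyclase of odorant transduction, had 2, 0, 1 and 3 summits in control 1, control 2, knockout 1 and knockout 2, the strongest at 10.5-fold. Ncam2, a cell adhesion protein of olfactory axons, had 3, 0, 1 and 1, and Ano2, the calcium-activated chloride channel of the cilia, had 1, 1, 0 and 1. Omp, the olfactory marker protein, had 1 summit in knockout 2 alone, at 6.58-fold. The transcription factor Ebf1 had 2 in control 2 alone, and Lhx2 had 1 in control 1 alone. None was found near the transport proteins Rtp1 and Rtp2, the channel subunit Cnga4, the vomeronasal channel Trpc2 or the nuclear envelope protein Lbr in any of the 4 libraries. No listed gene had a summit in all 4 libraries.

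Peaks do not measure expression, so they bear little on the labelled cell type. Of 9 cardiomyocyte markers, 4, 2, 0 and 1 had a summit within 20 kb in control 1, control 2, knockout 1 and knockout 2. The counts were 2, 0, 1 and 2 of 6 olfactory neuron markers, 1, 0, 0 and 1 of 3 fibroblast markers and 1, 0, 0 and 0 of 3 endothelial markers, all to be read beside the backgrounds of 21.1%, 17.1%, 10.5% and 17.5% of protein-coding genes. Of the cardiomyocyte markers, Ttn, Ryr2, Tnni3 and Pcm1 had a summit in at least 1 library, and Myh6, Tnnt2, Actn2, Pln and Mybpc3 had none in any.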

How the data were processed

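The authors deposited 1 peak list per ChIP library, 4 in all. The submitters' processing notes name mm10 as the build and Bowtie2, MACS2, DiffBind, FastQC and MultiQC as tools; their versions and settings, and whether the input served as the control of peak calling, are not stated there. The 4 input libraries were not analysed here. Per peak, the deposited values are a score, a fold enrichment (a ratio to background), −log10 p, −log10 q and a summit position. They depend on depth and were used within a list only. Read depth is unknown from the lists.

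Peaks on chromosomes 1 to 19 were used, with genes and promoters from RefSeq (GRCm38.p6, the assembly of mm10). The expectation under relocation is the covered length over the chromosome's length, summed over peaks, with no random draws; assembly gaps were kept. Fragment numbers were recovered from the fold, taken as fragments plus 1 over background plus 1, and the Poisson p-value (tolerance 0.01 in −log10 p), with a whole number found for 99.3% to 99.7% of peaks; the scripts were tested on simulated data. Libraries were the unit of every test: exact two-sided permutation tests for 2 libraries against 2 and sign-flip permutation tests over 4 libraries, reaching p of 0.333 and 0.125 at the lowest. No p-value reached 0.05.

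Named clusters were the 8 with the most genes and, of those with at least 0.5 Mb of window, the 3 densest and 3 sparsest. Named regions were the first 10 of each class by their lowest within-list percentile of −log10 q. Members, lists and rules were chosen with earlier results of these data known. Alternatives were a −log10 q minimum, windows of 5 and 50 kb, protein-coding receptors only, lists of equal length, local relocation, 50% reciprocal overlap, a replicate block and each library left out. Python 3.11.15, NumPy 2.4.6, SciPy 1.17.1, pandas 2.3.3 and matplotlib 3.10.9 were used.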

Additional observations from a re-analysis of the deposited data

Results flagged for a closer look

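Receptor genes on chromosome X were outside the set, which was limited to chromosomes 1 to 19. Within 20 kb of the 10 receptor genes there, in 0.400 Mb of window, control 1 had 4 peaks, control 2 had 3, knockout 1 had 1 and knockout 2 had 1. This is listed because the chromosome was not analysed and control 1 had more than 3 peaks there. At the density of the autosomal receptor windows, 0.400 Mb would hold 2.26, 1.53, 0.758 and 1.60 peaks in the same order, and the difference was not tested.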

How the results depend on the processing

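Of 106 values recomputed under another setting, 75 kept their direction or, for class counts, lay within 1.5 times. Of the rest, 13 reversed and 18 class counts moved. Assembly gaps were not left out, since no genome sequence was used here. The log2 ratio of density over relocated peaks, 0.18 as reported, was −0.42 with 5 kb windows and −0.055 with relocation within 50 kb. It was between 0.07 and 0.22 under the other settings. The knockout-to-control log2 ratio of peaks per Mb stayed negative in 12 of 12 settings, from −1.32 (without knockout 2) to −0.07 (every list kept to 4563 peaks). The share difference was −0.32 (without knockout 2) to −0.08 points (without knockout 1). With the replicate block, pairing libraries of the same number, the values were −0.76 (exact p = 1) and −0.20 (exact p = 0.5); the libraries share only a number. The step from near to far sequence was 0.93 to 1.47 in 9 of 9 settings. Recurrence in members minus other peaks, 1.13 points as reported, was −2.99 at a −log10 q of at least 5, −2.78 with 5 kb and −0.19 with 50 kb windows, and −1.04 (without control 2) to 3.57 (without knockout 1) with 1 library left out. The median −log10 q of members minus others was 0.0091 as reported, −0.44 at a −log10 q of at least 5, −0.15 with 5 kb and −0.051 with 50 kb windows, and −0.0032 to 0.015 with 1 library left out. The width difference, −0.25 bp as reported, was −19.4 bp with 5 kb and 1.13 bp with 50 kb windows and −4.33 to 2.33 bp with 1 library left out. Regions of all 4 libraries numbered 10 as reported, 3 at a −log10 q of at least 5, 1 with 5 kb windows, 6 with equal lists, 4 with 50% reciprocal overlap and 10 to 25 with 1 library left out. Those of both controls and neither knockout numbered 21, then 3, 9, 7 and 12 in the same order, and 27 to 226. Those of both knockouts and neither control numbered 6, then 2 at a −log10 q of at least 5, 1 with 5 kb windows and 9 to 139 with 1 library left out. With a library left out a class is defined by the 3 that remain, so its count grows by construction; the causes of the other changes were not tested.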
